A study of Mus musculus with 16 samples.

Results

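Transcripts of skeletal muscle were followed in mouse embryo heads by means of 39 genes: the proteins of the sarcomere, of its assembly, of calcium release, of the muscle side of the nerve-muscle synapse, and a pair of muscle energy enzymes. The genes were taken by symbol from a list made for this work with earlier results of these data known. All 39 of 39 were measured, among 18193 genes in all. Each gene was read from its brightest probe set, by the mean of the 16 arrays. Total RNA of embryo heads was hybridised to 6 arrays at E9.5, to 4 at E11.5 and to 6 at E13.5, and the submitters call the arrays of a stage biological replicates. The sources used here give no strain, genotype or treatment. The labels do not say how much of the head beside the brain was included. RNA of the E9.5 and E11.5 heads was labelled with a one-cycle kit of the array maker and RNA of the E13.5 heads with the MessageAmp II-Biotin Enhanced kit, so that the kit and the stage cannot be told apart wherever E13.5 is compared. These are bulk samples, in which fewer cells of a type and less RNA per cell cannot be told apart.

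A muscle fibre contracts when myosin heads of the thick filament pull on actin of the thin filament. Troponin and tropomyosin block this until calcium, let out of the sarcoplasmic reticulum through the ryanodine receptor, binds troponin C. In the embryo, myogenic factors such as MyoD and myogenin switch on these genes in myoblasts that fuse into myotubes. The first fibres carry embryonic and slow isoforms along with cardiac ones, which later give way to adult forms. Acetylcholine receptors of the fetal type, with a gamma subunit, lie on the surface of the myotube before the nerve gathers them at the synapse. In the head, part of such muscle forms from the mesoderm of the branchial arches and around the eye.

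Values are log2 of the deposited intensity. A gene was called when limma's moderated test gave an adjusted p under 0.05 (Benjamini-Hochberg over the 18193 genes), and "rose" and "fell" are kept for called genes. Errors of a difference are standard errors (SE). For E9.5 and E13.5 the lowest, median and highest array are given in that order, and for E11.5 the samples 33, 36, 51 and 52 in that order.

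Most of the 39 genes rose late. Because the list was made with earlier results of these data known, its shares beside those of all genes describe it and test nothing. Muscle genes outside the list, given further below, had late medians of 0.11 to 0.24. Between E11.5 and E13.5, 33 of the 39 genes rose, or 84.6%, where 27.9% of all genes did, and 2 fell, or 5.13%, where 27.0% of all genes did. At least 2-fold rises were seen in 25 of the 39 (64.1%, against 5.78% of all genes), and the median log2 difference was 1.64 over the 39 genes and 0.0001 over all genes. In 31 of the 39 (79.5%, against 22.3% of all genes) every E13.5 array lay above every E11.5 array. Between E9.5 and E11.5 these genes went both ways. Of the 39, 9 rose (23.1%, against 31.0% of all genes) and 11 fell (28.2%, against 26.9%), with a median of -0.03 beside 0.02 over all genes. With each array centred on its median 5 rose early in place of 9. Every E11.5 array lay above every E9.5 array in 3 of the 39 (7.69%, against 19.9% of all genes) and below in 4 (10.3%, against 17.8%).

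**Figure D1:**
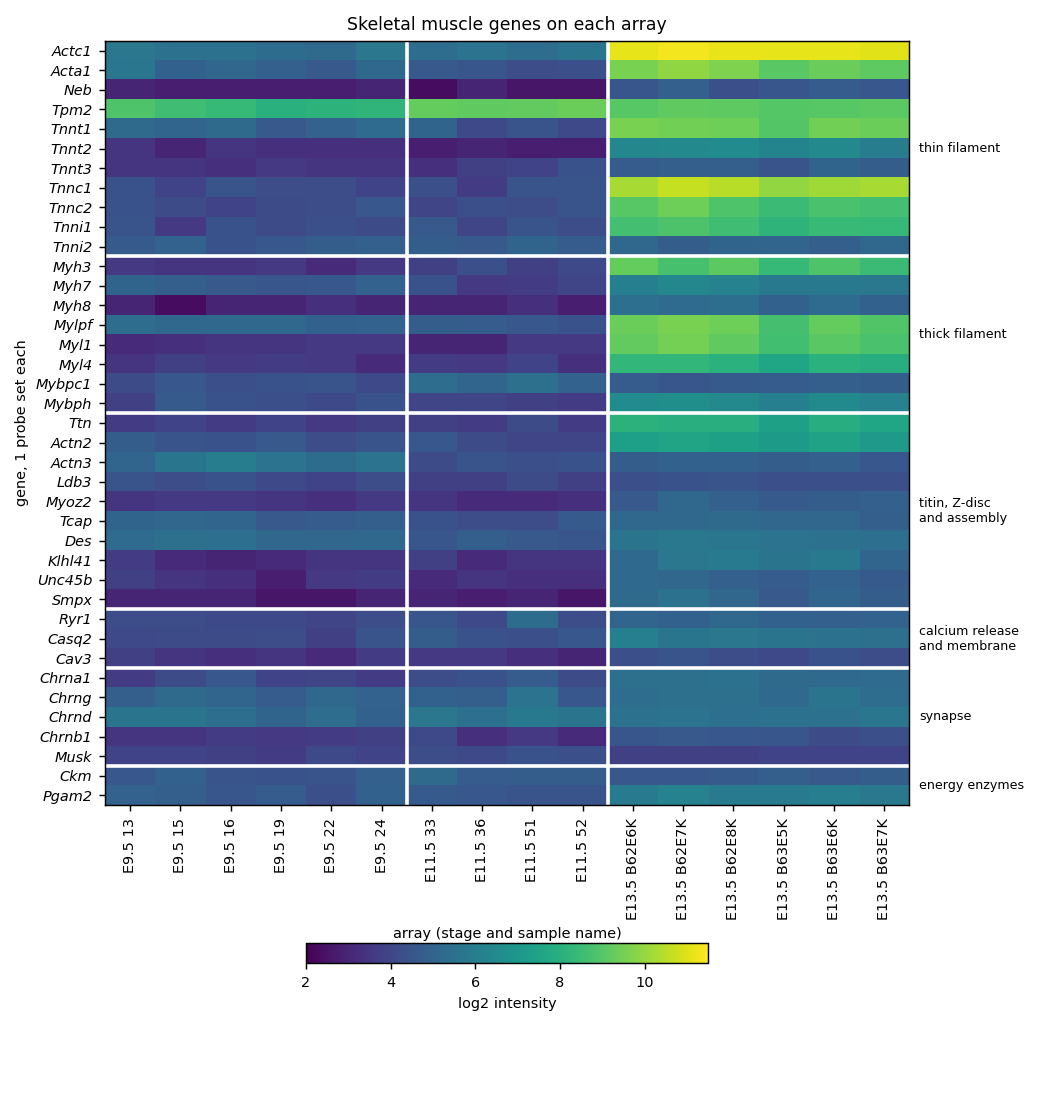
Log2 intensity (colour) of the 39 muscle genes (rows, by role) on the 16 arrays (columns, by stage and sample name). Most genes are dark on the 10 E9.5 and E11.5 arrays and brighter on the 6 E13.5 arrays; Tpm2 is bright at all 3 stages.

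The change from step to step was tested gene by gene, as the late difference minus the early one. It was larger in the late interval for 30 of the 39 (76.9%, against 26.3% of all genes) and smaller for 3 (7.69%, against 27.0%), which were Tpm2, Mybpc1 and Musk (5 without E9.5 samples 13 and 15, and 1 when a gene's probe sets were averaged). Set against E9.5, 33 of the 39 genes were higher at E13.5 (84.6%, against 32.7% of all genes), 25 of them at least 2-fold (64.1%, against 9.93%). Only Actn3 was lower, 1 of the 39 (2.56%, against 29.1%). The median was 1.51, beside 0.01 over all genes. The comparisons share arrays and are given side by side for that reason. Before E13.5 most of the probe sets were dim. Mean intensity lay below the lower quartile of an array (an intensity of 12) for 12 genes at E9.5, 10 at E11.5 and 0 at E13.5. It lay below an intensity of 32 for 30, 34 and 11 of the 39 at these stages, where 39.3%, 38.1% and 37.4% of all genes did. It reached 8 on the log2 scale for 1, 1 and 11 of the 39, where 25.4%, 25.5% and 26.0% of all genes did.

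**Figure D2:**
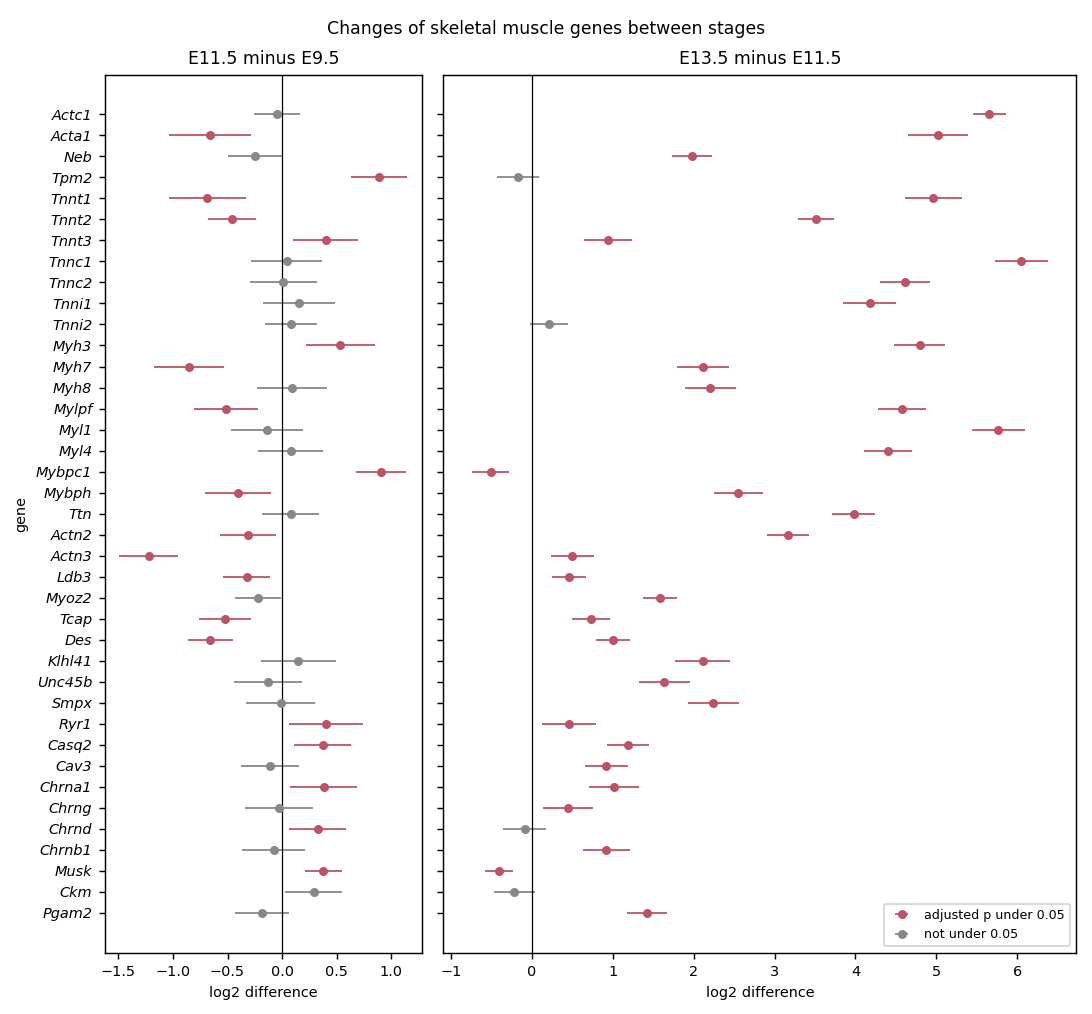
Log2 difference of each muscle gene from E9.5 to E11.5 (left) and from E11.5 to E13.5 (right), with 95% confidence intervals of the limma fit; red marks an adjusted p under 0.05. The left panel scatters on both sides of 0, and the right panel lies above 0 for all but Tpm2, Mybpc1, Chrnd, Musk and Ckm.

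Promoters are shown beside the genes below because their genes moved together. RefSeq promoter windows of assembly GRCm38.p6 (250 bases before to 50 after each start) were matched by symbol for 33 of the 39 genes, in 37 windows. The 250 bases before the start are printed on the gene's strand, with capitals for the motifs searched on both strands: the E-boxes CAGCTG and CACCTG, the MEF2 site, the CArG box bound by serum response factor, and the TATA box TATAAA, searched on the gene's strand alone. CAGCTG was found in 48.6% of the muscle windows and 16.3% of all 32851 windows, and CACCTG in 35.1% and 20.2%. Both are forms of CANNTG, found in 86.5% and 72.3%. The MEF2 site stood in 16.2% against 3.19%, the CArG box in 10.8% against 1.63%, the MEF3 site TCAGGTTT in 2.70% against 1.31% and TATAAA in 10.8% against 8.32%. Median late differences with and without CAGCTG were 1.42 (17 genes) and 2.70 (16). They were 2.12 (11) and 1.89 (22) for CACCTG and 1.85 (6) and 2.24 (27) for MEF2. For the CArG box they were 5.02 (3) and 2.11 (30), and for TATAAA 4.99 (4) and 1.64 (29). CANNTG gave 2.12 (29) and 1.35 (4), and MEF3 -0.51 (1) and 2.16 (32). The windows of Tpm2, Mybpc1, Musk and Ckm, which did not rise late, each held CAGCTG. Such matches describe letters in a window and show no binding.

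Thin filament genes had the highest median late difference of the roles. Of the 11, 9 rose from E11.5 to E13.5, with a median of 4.17, and 2 (Tpm2 and Tnni2) were not called. Of all genes, 27.9% rose and 27.0% fell in this interval. Tnnc1, the calcium-binding troponin C of slow and cardiac muscle, read 3.91, 4.25 and 4.46 at E9.5, then 4.32, 3.70, 4.46 and 4.46 at E11.5, and 9.94, 10.25 and 10.65 at E13.5. The first 2 stages overlapped, with E11.5 sample 36 below the E9.5 range, and the 6 E13.5 arrays stood far above them. Its late difference was 6.05 ± 0.16 SE, or 66.3-fold (adjusted p = 1.2e-16), after an early one of 0.04 ± 0.16. Actc1, the cardiac actin that is also the main actin of embryonic skeletal muscle, read 5.29, 5.58 and 5.78 at E9.5, then 5.39, 5.61, 5.39 and 5.64 at E11.5. All 4 E11.5 arrays thus lay inside the E9.5 range. At E13.5 it read 11.06, 11.15 and 11.34, a late difference of 5.66 ± 0.10 SE, or 50.5-fold (adjusted p = 5.5e-19).

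Acta1, the skeletal actin of the adult fibre, first fell and then rose. It read 4.64, 5.04 and 5.73 at E9.5, then 4.64, 4.52, 4.25 and 4.32 at E11.5, and 9.07, 9.46 and 9.92 at E13.5. No E11.5 array was above an E9.5 array, and sample 13 was the highest at E9.5. The early difference was -0.66 ± 0.18 SE (adjusted p = 0.0034) and the late one 5.02 ± 0.18 SE, or 32.4-fold (adjusted p = 1.1e-14). The upstream sequences of both actins are shown because they carry a CArG box, at position -47 in Actc1 and -73 in Acta1, counted from the start. The Acta1 window also holds CAGCTG at -221 and TATAAA at -7. The Actc1 sequence is chr2:114052876-114053125 on the minus strand and the Acta1 sequence chr8:123894776-123895025 on the minus strand.
Actc1: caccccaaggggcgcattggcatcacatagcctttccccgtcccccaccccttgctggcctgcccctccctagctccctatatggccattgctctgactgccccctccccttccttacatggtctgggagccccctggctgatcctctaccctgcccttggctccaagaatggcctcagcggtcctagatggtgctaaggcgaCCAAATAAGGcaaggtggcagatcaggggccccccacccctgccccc
Acta1: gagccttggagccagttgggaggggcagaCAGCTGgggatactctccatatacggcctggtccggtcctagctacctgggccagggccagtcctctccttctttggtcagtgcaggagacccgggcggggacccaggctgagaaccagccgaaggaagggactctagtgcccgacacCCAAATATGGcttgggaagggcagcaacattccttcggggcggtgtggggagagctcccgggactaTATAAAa
No other muscle gene with a window held a CArG box except Ldb3. The Tnnc1 window held CANNTG and none of the other motifs searched.

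The troponin T genes, whose proteins tie the troponin complex to tropomyosin, differed in the early interval. Tnnt1, the slow form, read 4.64, 5.19 and 5.32 at E9.5 and 5.04, 4.09, 4.46 and 4.09 at E11.5. Only sample 33 reached into the E9.5 range, and Tnnt1 fell by 0.68 ± 0.17 SE (adjusted p = 0.0017). It then read 8.97, 9.43 and 9.60 at E13.5, a rise of 4.96 ± 0.17 SE, or 31.2-fold (adjusted p = 6.1e-15). Tnnt2, the cardiac form that early skeletal muscle shares, read 3.00, 3.32 and 3.46 at E9.5, then 2.81, 3.00, 2.81 and 2.81 at E11.5, and 6.00, 6.43 and 6.58 at E13.5. It fell by 0.46 ± 0.11 SE (adjusted p = 0.0010) at the dim end of the array and then rose by 3.51 ± 0.11 SE (adjusted p = 1.2e-15). Its second probe set gave an early difference of -0.10 (adjusted p = 0.61), and the mean of its probe sets was not called early either (adjusted p = 0.98). Another Tnnt2 probe set moved the opposite way in each interval, by 0.55 early (adjusted p = 0.00020) and -0.35 late (adjusted p = 0.0098). Tnnt3, the fast form, rose in both intervals. It read 3.32, 3.46 and 3.58 at E9.5, then 3.32, 3.81, 3.91 and 4.39 at E11.5, and 4.46, 4.83 and 5.04 at E13.5. Its early rise of 0.40 ± 0.14 SE (adjusted p = 0.022) was lost without E11.5 sample 52 (0.22, adjusted p = 0.14) or with median centring (0.33, adjusted p = 0.059), and its late rise was 0.94 ± 0.14 SE (adjusted p = 1.2e-05).

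Tpm2, the beta-tropomyosin that is also made by smooth muscle and other cells, had the other course. It read 8.04, 8.29 and 8.88 at E9.5, then 9.26, 9.17, 9.23 and 9.36 at E11.5, and 8.98, 9.07 and 9.19 at E13.5. The first 2 stages were apart, with a rise of 0.89 ± 0.12 SE (adjusted p = 3.8e-06), and the late difference of -0.18 ± 0.12 SE was not called (adjusted p = 0.24). Its other 3 probe sets gave -0.45, -1.67 and 0.17 early and rose late, by 1.43, 2.98 and 0.53. The fast inhibitory subunit Tnni2 read 4.39, 4.75 and 5.0 at E9.5, then 4.81, 4.64, 5.04 and 4.75 at E11.5, and 4.81, 5.07 and 5.17 at E13.5. All 3 stages overlapped, the late difference was 0.21 ± 0.11 SE (adjusted p = 0.13), and another of its probe sets gave 1.30 ± 0.13 SE. The remaining thin filament genes rose late: Tnnc2, troponin C of fast muscle, by 4.61, Tnni1, the slow inhibitory subunit, by 4.17, and Neb, the ruler protein nebulin, by 1.98.

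Of the 8 thick filament genes, 7 rose from E11.5 to E13.5 and Mybpc1 fell, with a median of 3.48 (27.9% of all genes rose and 27.0% fell). Myl1, an essential light chain of fast and embryonic myosin, read 3.17, 3.46 and 3.58 at E9.5, then 3.00, 3.00, 3.58 and 3.58 at E11.5, and 8.62, 9.12 and 9.51 at E13.5. The first 2 stages overlapped, and the late rise was 5.76 ± 0.16 SE, or 54.4-fold (adjusted p = 2.9e-16). The Myl1 upstream sequence is shown because its rise was among the largest; it holds CAGCTG at -224 (chr1:66945057-66945306, minus strand).
Myl1: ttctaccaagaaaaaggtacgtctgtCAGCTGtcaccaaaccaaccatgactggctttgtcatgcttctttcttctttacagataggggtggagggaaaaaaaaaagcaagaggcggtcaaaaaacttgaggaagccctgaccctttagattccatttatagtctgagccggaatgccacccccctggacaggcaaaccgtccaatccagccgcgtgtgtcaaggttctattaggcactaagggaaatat
Myh3, the embryonic myosin heavy chain, was 1 of 3 genes whose arrays rose without overlap already in the early interval. It read 3.17, 3.52 and 3.58 at E9.5, then 3.81, 4.32, 3.81 and 4.09 at E11.5, and 8.38, 8.81 and 9.24 at E13.5. The rise was 0.53 ± 0.15 SE early (adjusted p = 0.0050) and 4.80 ± 0.15 SE late, or 27.8-fold (adjusted p = 1.9e-15).

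Mylpf, the regulatory light chain of fast muscle, and Myh7, the slow and cardiac heavy chain, fell before they rose. Mylpf read 4.95, 5.17 and 5.39 at E9.5, then 4.81, 4.75, 4.58 and 4.39 at E11.5, and 8.70, 9.30 and 9.59 at E13.5. The stages did not overlap, with differences of -0.51 ± 0.14 SE (adjusted p = 0.0039) and 4.57 ± 0.14 SE (adjusted p = 1.6e-15). Myh7 read 4.52, 4.75 and 5.04 at E9.5, then 4.39, 3.58, 3.70 and 4.00 at E11.5, and 5.81, 5.97 and 6.41 at E13.5. Here too the 3 stages were apart, with -0.86 ± 0.15 SE (adjusted p = 7.6e-05) and 2.12 ± 0.15 SE (adjusted p = 4.7e-10). Mybph, the myosin-binding protein H, read 3.81, 4.36 and 4.70 at E9.5, then 4.00, 4.00, 3.81 and 3.70 at E11.5, and 6.09, 6.48 and 6.71 at E13.5. The first 2 stages overlapped, its early fall of 0.41 ± 0.14 SE (adjusted p = 0.021) was not called without E11.5 sample 51 or 52, and its late rise was 2.55 ± 0.14 SE.

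Mybpc1, the slow myosin-binding protein C, fell late on the probe set read here. It read 4.09, 4.36 and 4.58 at E9.5, then 5.39, 5.09, 5.49 and 5.0 at E11.5, and 4.52, 4.75 and 4.86 at E13.5. All 4 E11.5 arrays stood above both other stages, with differences of 0.91 ± 0.11 SE (adjusted p = 6.0e-07) and -0.51 ± 0.11 SE (adjusted p = 0.00054). Its other probe sets rose late by 1.5 ± 0.14 SE and 0.57 ± 0.15 SE, so the direction depends on the probe set, and the second-brightest was not called early (0.26, adjusted p = 0.14). The embryonic atrial light chain Myl4, which fetal skeletal muscle also makes, rose late by 4.40 ± 0.14 SE and the perinatal heavy chain Myh8 by 2.21 ± 0.15 SE. A second Myl4 probe set rose early by 1.24 ± 0.18 SE (adjusted p = 8.7e-06) and fell late by 1.18 ± 0.18 SE.

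All 10 genes of titin, the Z-disc and sarcomere assembly rose late (27.9% of all genes did), with a median of 1.61. In the early interval 5 fell (26.9% of all genes did) and 5 were not called. Ttn, the giant spring that spans the half-sarcomere, read 3.58, 3.75 and 3.91 at E9.5, then 3.81, 3.70, 4.17 and 3.70 at E11.5, and 7.40, 7.93 and 8.10 at E13.5. Its late rise was 3.98 ± 0.13 SE, or 15.8-fold (adjusted p = 2.2e-15). Of its 5 other probe sets, 3 rose, by 2.91, 1.49 and 0.65, and 2 were not called. Actn2, the alpha-actinin that cross-links actin at the Z-disc, read 4.25, 4.46 and 4.81 at E9.5, then 4.58, 4.17, 4.00 and 4.00 at E11.5, and 7.14, 7.39 and 7.55 at E13.5. Its early fall of 0.31 ± 0.12 SE (adjusted p = 0.037) was lost when sample 13 or 19 of E9.5 or sample 36, 51 or 52 of E11.5 was left out (adjusted p of 0.069 to 0.13), without samples 13 and 15 together (0.11), with the title prefix of the E13.5 arrays (B62 or B63) as a random block (0.058), with only the stages compared (0.068) and with array weights (0.13). Its late rise was 3.16 ± 0.12 SE (adjusted p = 5.2e-14).

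Actn3, the alpha-actinin of fast fibres, was the 1 gene called lower at E13.5 than at E9.5; Musk was next, at -0.03, and was called with each array centred on its median (-0.17, adjusted p = 0.048). It read 5.09, 5.61 and 5.98 at E9.5, then 4.17, 4.46, 4.32 and 4.39 at E11.5, and 4.58, 4.86 and 4.95 at E13.5. The stages did not overlap, with -1.22 ± 0.13 SE early (adjusted p = 8.3e-08), 0.50 ± 0.13 SE late (adjusted p = 0.0024) and -0.72 ± 0.11 SE from E9.5 to E13.5 (adjusted p = 1.3e-05). Des, the intermediate filament desmin, read 5.13, 5.27 and 5.52 at E9.5, then 4.52, 4.86, 4.64 and 4.52 at E11.5, and 5.46, 5.63 and 5.81 at E13.5. It fell by 0.66 ± 0.10 SE (adjusted p = 8.7e-06) with no overlap and rose by 1.0 ± 0.10 SE (adjusted p = 3.4e-08), while its second probe set moved the opposite way in each interval, by 0.39 and -0.32, and the mean of both was not called early (-0.13, adjusted p = 0.16).

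Tcap, the titin cap telethonin, read 4.64, 4.95 and 5.13 at E9.5, then 4.39, 4.25, 4.25 and 4.70 at E11.5, and 4.86, 5.15 and 5.29 at E13.5. It fell by 0.52 ± 0.11 SE (adjusted p = 0.00050) and rose by 0.73 ± 0.11 SE (adjusted p = 1.5e-05), and E13.5 lay partly above the E9.5 range. Ldb3, the Z-disc PDZ protein Cypher, read 3.91, 4.25 and 4.46 at E9.5, then 3.81, 3.81, 4.17 and 3.81 at E11.5, and 4.32, 4.32 and 4.46 at E13.5. It fell by 0.33 ± 0.10 SE (adjusted p = 0.0095) and rose by 0.46 ± 0.10 SE (adjusted p = 0.00069), and E13.5 lay inside the E9.5 range. Its second probe set gave 0.056 early (adjusted p = 0.69), and the mean of its probe sets -0.12 (0.067). Smpx, a small muscle protein, read 2.58, 3.00 and 3.00 at E9.5, then 3.00, 2.81, 3.00 and 2.58 at E11.5, and 4.64, 5.11 and 5.58 at E13.5. All its values before E13.5 lay below the lower quartile of the arrays, and it rose by 2.24 ± 0.15 SE (adjusted p = 1.6e-10). Klhl41, a kelch protein of sarcomere assembly, rose by 2.11, the myosin chaperone Unc45b by 1.64 and the calcineurin-binding Myoz2 by 1.58. The Klhl41 upstream sequence is shown because it holds 3 of the motifs: CACCTG at -198, CAGCTG at -127 and a MEF2 site at -63 (chr2:69669870-69670119, plus strand).
Klhl41: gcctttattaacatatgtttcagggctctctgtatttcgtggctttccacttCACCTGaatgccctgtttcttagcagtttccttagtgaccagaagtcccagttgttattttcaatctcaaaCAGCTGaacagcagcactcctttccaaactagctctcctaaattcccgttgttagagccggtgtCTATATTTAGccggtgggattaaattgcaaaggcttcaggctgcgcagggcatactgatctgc

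The 3 genes of calcium release and membrane rose late, where 27.9% of all genes did, with a median of 0.92. Casq2, the calcium store protein calsequestrin of heart and slow muscle, read 3.81, 4.17 and 4.46 at E9.5, then 4.81, 4.39, 4.32 and 4.58 at E11.5, and 5.49, 5.67 and 6.09 at E13.5. Its early rise of 0.37 ± 0.13 SE (adjusted p = 0.017) was lost without E11.5 sample 33 (0.28, adjusted p = 0.082), and its late rise was 1.19 ± 0.13 SE (adjusted p = 1.0e-07). Cav3, the muscle caveolin, rose late by 0.92 ± 0.13 SE (adjusted p = 3.6e-06). Ryr1, the calcium release channel, read 4.00, 4.17 and 4.25 at E9.5, then 4.52, 4.09, 5.36 and 4.25 at E11.5, and 4.91, 4.98 and 5.17 at E13.5. E11.5 sample 51 lay above all E13.5 arrays, and the other 3 lay below them. Ryr1 rose by 0.40 ± 0.16 SE early (adjusted p = 0.040) and 0.46 ± 0.16 SE late (adjusted p = 0.021). The early call was lost without sample 51 (0.13, adjusted p = 0.26) or without sample 16, 19, 22 or 33, under quantile normalization, median centring or array weights, with only the stages compared (adjusted p of 0.062 to 0.093 in these), and with the mean of its probe sets (0.70). The late call was lost without E11.5 sample 36 or 52 (adjusted p of 0.12 and 0.092), with only the stages compared (0.058) or with the title prefix as a random block (0.072), and its other probe set rose late by 2.12 ± 0.14 SE.

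Of the 5 synapse genes, 3 rose late, 1 fell and 1 was not called, with a median of 0.44 (27.9% of all genes rose late and 27.0% fell). Chrna1, the acetylcholine-binding alpha subunit of the muscle receptor, read 3.70, 3.95 and 4.58 at E9.5, then 4.25, 4.39, 4.75 and 4.17 at E11.5, and 5.25, 5.41 and 5.55 at E13.5. E13.5 stood apart, with a late rise of 1.01 ± 0.15 SE, or 2.02-fold (adjusted p = 6.6e-06). Its early rise of 0.38 ± 0.15 SE (adjusted p = 0.032) was lost when sample 13, 19 or 24 of E9.5 or sample 36 or 51 of E11.5 was left out (adjusted p of 0.056 to 0.15), without samples 13 and 15 together (0.071), under quantile normalization (0.054) or median centring (0.063), with only the stages compared (0.074) and with array weights (0.11). Chrnb1, the beta subunit, read 3.46, 3.64 and 3.81 at E9.5, then 4.09, 3.32, 3.58 and 3.17 at E11.5, and 4.17, 4.52 and 4.64 at E13.5. E13.5 was above all other arrays, with a rise of 0.92 ± 0.14 SE (adjusted p = 1.1e-05).

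Chrng, the gamma subunit of the fetal receptor, read 4.75, 5.04 and 5.29 at E9.5, then 4.95, 4.86, 5.61 and 4.58 at E11.5, and 5.25, 5.44 and 5.64 at E13.5. E11.5 sample 51 lay near the top of the E13.5 range. The rise of 0.44 ± 0.15 SE (adjusted p = 0.016) was not called without E11.5 sample 36 or 52 or with the title prefix of the E13.5 arrays as a random block (adjusted p = 0.072). The early difference of -0.03 was not called (adjusted p = 0.88). Other Chrng probe sets gave -0.53 (adjusted p = 0.00015) and -0.42 (adjusted p = 0.0022) early, and rose late by 0.30 and 0.39. The mean of all its probe sets gave -0.33 early (adjusted p = 0.00052). Chrnd, the delta subunit, read 4.95, 5.41 and 5.67 at E9.5, then 5.78, 5.46, 5.83 and 5.64 at E11.5, and 5.46, 5.58 and 5.73 at E13.5. The ranges overlapped, the late difference was -0.09 ± 0.12 SE (adjusted p = 0.56), and the early rise of 0.32 ± 0.12 SE (adjusted p = 0.032) was lost when sample 19 or 24 of E9.5 or sample 33 or 51 of E11.5 was left out (adjusted p of 0.076 to 0.10), under quantile normalization (0.22, adjusted p = 0.12) or median centring (adjusted p = 0.073), and with only the stages compared (0.081). Musk, the receptor kinase through which agrin clusters the receptor, read 3.70, 3.91 and 4.09 at E9.5, then 4.25, 4.09, 4.39 and 4.32 at E11.5, and 3.81, 3.86 and 3.91 at E13.5. Every E13.5 array lay below every E11.5 array. Musk rose by 0.38 ± 0.08 SE (adjusted p = 0.00053) and fell by 0.41 ± 0.08 SE (adjusted p = 0.00028).

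The upstream sequences of Chrna1 and Chrng are shown because each holds a pair of CAGCTG motifs, at -92 and -44 in Chrna1, with CACCTG (read on the other strand) at -73, and at -155 and -132 in Chrng. They are chr2:73580339-73580588 on the minus strand and chr1:87205561-87205810 on the plus strand.
Chrna1: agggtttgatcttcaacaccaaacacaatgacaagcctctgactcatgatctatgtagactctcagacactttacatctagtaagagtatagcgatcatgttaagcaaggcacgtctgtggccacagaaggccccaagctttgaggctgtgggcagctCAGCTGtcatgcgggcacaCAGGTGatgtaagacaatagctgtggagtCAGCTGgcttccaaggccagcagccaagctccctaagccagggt
Chrng: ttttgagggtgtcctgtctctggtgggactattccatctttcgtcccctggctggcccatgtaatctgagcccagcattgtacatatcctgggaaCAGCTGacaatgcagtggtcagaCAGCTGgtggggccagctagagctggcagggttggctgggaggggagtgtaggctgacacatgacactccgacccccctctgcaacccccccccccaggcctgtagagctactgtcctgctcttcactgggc
Both genes rose late, by 1.01 and 0.44.

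The energy enzymes parted. Pgam2, the muscle phosphoglycerate mutase of glycolysis, read 4.32, 4.81 and 5.0 at E9.5, then 4.70, 4.58, 4.46 and 4.46 at E11.5, and 5.81, 5.93 and 6.21 at E13.5. It rose late by 1.42 ± 0.12 SE, or 2.68-fold (adjusted p = 3.4e-09). Ckm, the creatine kinase of mature muscle, read 4.39, 4.52 and 4.95 at E9.5, then 5.29, 4.75, 4.81 and 4.81 at E11.5, and 4.58, 4.67 and 4.86 at E13.5. No stage stood apart, and neither the early difference of 0.29 ± 0.12 SE (adjusted p = 0.052) nor the late one of -0.22 ± 0.12 SE (adjusted p = 0.15) was called. The early one was called without sample 15, 24 or 36 (adjusted p of 0.016 to 0.038), without samples 13 and 15 together (0.021), with array weights (0.039) and without the dimmest 25% of genes (0.047), and the late one with median centring (-0.29, adjusted p = 0.044). Its second probe set gave 0.10 ± 0.12 SE late. The Pgam2 upstream sequence holds CACCTG (read on the other strand) at -132, CAGCTG at -125 and a MEF2 site at -80 (chr11:5803797-5804046, minus strand).
Pgam2: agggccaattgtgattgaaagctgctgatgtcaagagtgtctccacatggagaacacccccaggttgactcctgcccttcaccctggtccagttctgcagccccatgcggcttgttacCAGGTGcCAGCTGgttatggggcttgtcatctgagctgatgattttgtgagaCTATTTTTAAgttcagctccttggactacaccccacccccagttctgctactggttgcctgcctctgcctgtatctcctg
The Ckm window held CAGCTG.

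Several genes were read by more than 1 probe set, and these did not always move alike. Of the 39 genes, 28 had 1 probe set and 11 had more, with 22 probe sets besides those chosen. Of the 22, 15 rose from E11.5 to E13.5 (68.2%, against 24.2% of the 16752 probe sets not chosen) and 3 fell (13.6%, against 30.3%). The 3 were probe sets of Des, Myl4 and Tnnt2. For Tpm2, Mybpc1, Tnni2, Ryr1 and Ldb3 another probe set showed a larger late rise than the chosen one. The probe sets read for Tnnt2, Tnni2 and Casq2 carry the suffix x or s in their names, which the array maker gives where probes may also bind other transcripts.

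**Figure D3:**
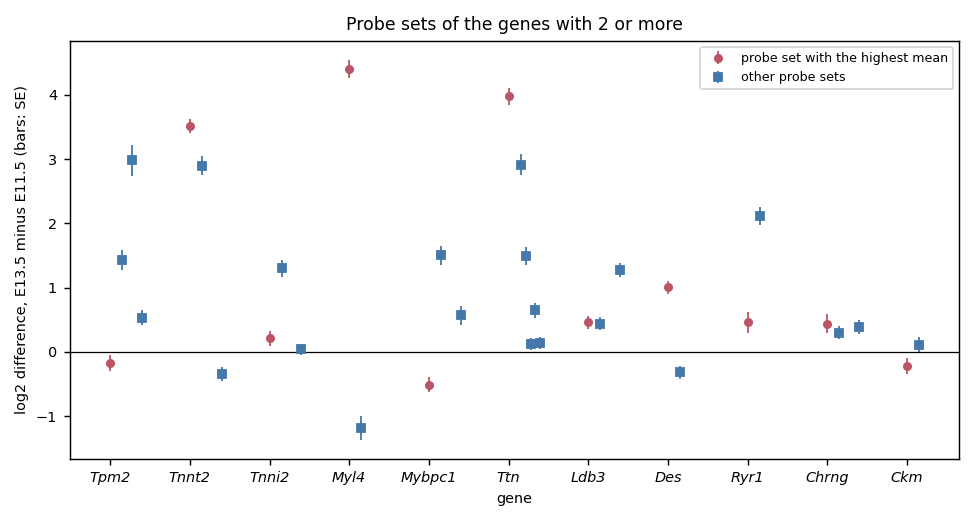
Log2 difference from E11.5 to E13.5 (vertical axis, bars are SE) for every probe set of the 11 genes with 2 or more; circles are the probe set with the highest mean and squares the others. Tpm2 and Mybpc1 lie below 0 on the circle and above 0 on all squares, and Myl4 and Des the other way round.

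Within E13.5 the arrays whose titles begin with B62 (3 arrays) read higher for muscle genes than those with B63 (3 arrays). The labels do not say what the prefixes stand for. The difference B62 minus B63 had a median of 0.18 over the 39 genes and 0.0007 over all genes, and was above 0 for 33 of the 39 and for 9144 of all 18193. Every B62 array lay above every B63 array for 12 of the 39 (30.8%, against 4.92% of all genes) and below for 1, Musk (2.56%, against 3.79%). For Musk the gap was 1 whole-number step near the dim end, an intensity of 14 on the B62 arrays and 15 on the B63 arrays. Acta1 read 9.59 to 9.92 on the B62 arrays and 9.07 to 9.33 on the B63 arrays, Myl1 9.17 to 9.51 and 8.62 to 9.06, and Smpx 5.13 to 5.58 and 4.64 to 5.09. Actc1, Tnnc1 and Myh3 overlapped between the prefixes. Array B62E7K was the highest of its stage for 20 of the 39 genes (and for 31.0% of all genes) and B63E5K the lowest for 18 (25.5% of all genes). The mean of a cartilage list of 7 genes was 9.04 to 9.07 on the B62 arrays and 8.75 to 8.89 on the B63 arrays, and that of 12 connective tissue genes 9.90 to 9.9998 and 9.83 to 9.88, while 9 neuronal genes overlapped (9.90 to 9.98 and 9.94 to 10.01). The part of these in the muscle difference was not tested. Of the lists described below, other sarcomere genes were also apart (5.34 to 5.37 on B62, 5.25 to 5.27 on B63). So were excitation-contraction coupling (5.82 to 5.85 and 5.77 to 5.81) and muscle energy (5.35 to 5.47 and 5.26 to 5.33). The heart muscle, smooth muscle, other synapse and regulator lists overlapped.

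**Figure D4:**
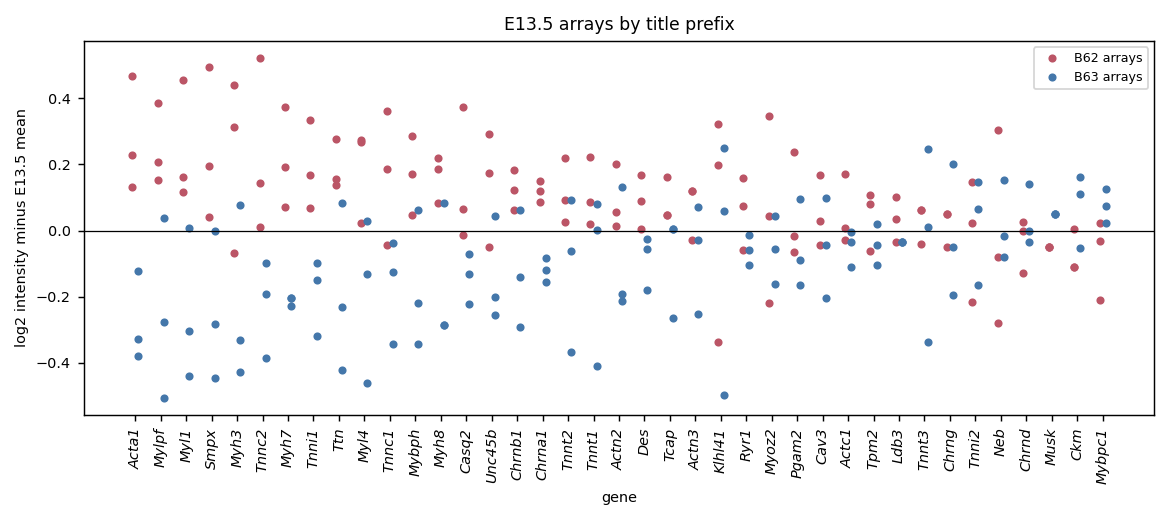
Log2 intensity of each muscle gene on the 6 E13.5 arrays minus the mean of the 6, by title prefix (3 B62 arrays in red, 3 B63 arrays in blue), ordered by the difference between prefixes. The B62 points lie above the B63 points without overlap for 12 genes, Acta1 first.

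Genes of other cell types were read beside the muscle genes. Of all genes, 27.9% rose and 27.0% fell from E11.5 to E13.5, and 31.0% rose and 26.9% fell from E9.5 to E11.5. Of 18 genes of heart muscle, 5 rose and 3 fell from E11.5 to E13.5, with a median of 0.03. The share of heart genes that rose was near that of all genes. The 3 with the largest changes were Hand2 (2.10 ± 0.12 SE), Csrp3 (1.47 ± 0.13 SE) and Ryr2 (0.92 ± 0.13 SE), of which Csrp3 is also made by skeletal muscle. The mean of the list on an array was 3.93 to 4.23 at E9.5, 4.06 to 4.20 at E11.5 and 4.27 to 4.36 at E13.5. Of these, 7 were listed as defining heart against skeletal muscle (Myl7, Nppa, Tnni3, Nkx2-5, Gata4, Tbx20 and Bmp10), and their means stayed below an intensity of 32 (5 on the log2 scale) at every stage, a level under which 37.4% to 39.3% of all genes lay. Others of the 18 passed it, among them Myl3 at all stages (5.36, 5.89 and 5.41), Hand1 at E11.5 and E13.5 (5.35 and 5.52) and Hand2 at E13.5 (6.12). Of the 7, only Nppa was below 12, at all 3 stages. In the early interval 11 of the 39 fell (28.2%, against 26.9% of all genes) and 9 rose (23.1%, against 31.0%). Acta1, Myh7 and Des were among those that fell, though the second Des probe set rose by 0.39. Of the 18 heart genes 6 rose early, 2 fell and 10 were not called, with a median of 0.02. The atrial light chain Myl7 fell from 4.68 ± 0.32 to 3.88 ± 0.16 (SD, n = 6 and 4, adjusted p = 3.7e-05), and the ventricular Myl2 fell by 0.39 ± 0.09 SE. Myh6 rose by 0.56 ± 0.12 SE, Myl3 by 0.53 ± 0.11 SE and Pln by 0.52 ± 0.16 SE. Hand1 rose by 0.49 ± 0.11 SE, Hand2 by 0.40 ± 0.12 SE and Nkx2-5 by 0.30 ± 0.11 SE. The part of heart muscle RNA in the early falls of single muscle genes was not tested. Of 9 smooth muscle genes, 2 rose late, Acta2 by 1.38 ± 0.20 SE and Actg2 by 0.49 ± 0.13 SE. Another 2 fell, Synpo2 by 0.56 ± 0.13 SE and Lmod1 by 0.40 ± 0.11 SE, and the median was 0.03.

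Connective tissue and cartilage rose in the same interval, in which 27.9% of all genes rose (31.0% in the early interval). Of 12 connective tissue genes, 11 rose late (median 1.85), with Dcn at 5.11 ± 0.15 SE, and of 7 cartilage genes 6 rose (median 2.32), with Cnmd at 5.44 ± 0.13 SE, while Sox9 fell by 0.65 ± 0.09 SE. Connective tissue had already risen early (11 of 12, median 1.49). Of 9 neuronal genes, 9 rose early and 7 late, and their mean was 8.82 to 8.90 on the E11.5 arrays, so neuronal transcripts were present in the labelled heads. Over the 16 arrays the 10 genes most like the mean of the 39 (each first centred on its own mean) were Cnmd, Col9a3, Sdf2, Dlgap4, Krt14, Neurod6, Matn1, Ibsp, Cpt1c and Skp1, with Pearson r of 0.994 to 0.997. These points share their arrays and fall into an E13.5 group and the rest, so r describes that step.

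**Figure D5:**
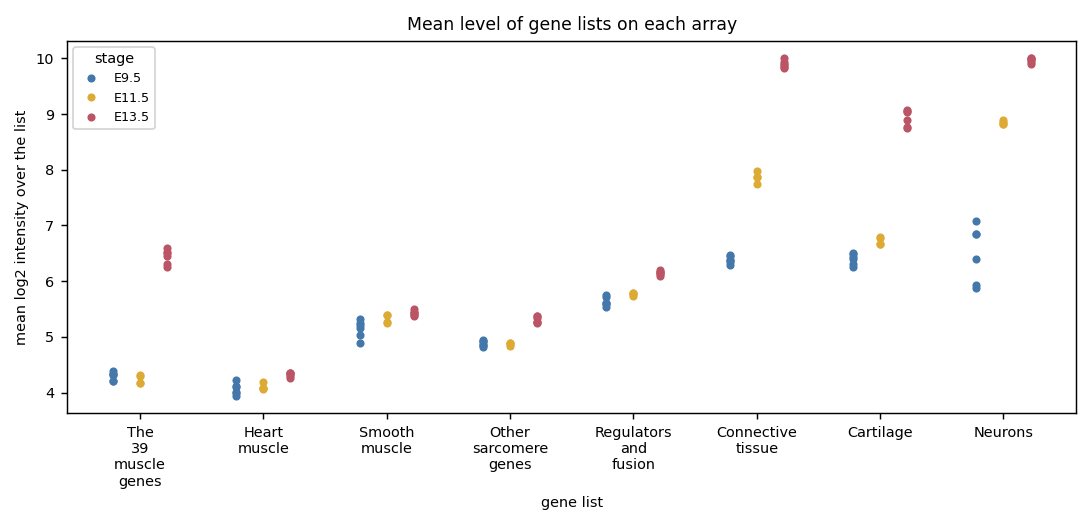
Mean log2 intensity over each gene list (vertical axis) on each array (points, coloured by stage). The 39 muscle genes step up at E13.5 alone, and connective tissue and neurons step up at both intervals. The heart muscle list lies between 3.93 and 4.36, with the E13.5 arrays (4.27 to 4.36) a little above all others.

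Muscle genes outside the 39 are given by list, each with its late median. Of all genes, 27.9% rose late and 27.0% fell. The regulators of muscle formation and fusion had 8 of 19 higher and 3 lower from E11.5 to E13.5 (median 0.11). Myog, myogenin, rose in both intervals, from 3.63 ± 0.22 (SD, n = 6) to 4.23 ± 0.25 (n = 4) and 7.64 ± 0.18 (n = 6), with differences of 0.60 ± 0.13 SE (adjusted p = 0.00043) and 3.41 ± 0.13 SE (adjusted p = 2.4e-14). Myod1, MyoD, also rose in both, by 0.49 ± 0.15 SE (adjusted p = 0.0078) and 1.40 ± 0.15 SE (adjusted p = 1.0e-07). Mef2c rose late by 1.54 ± 0.11 SE, while Eya1 and Six4, factors of earlier progenitors, fell by 1.24 ± 0.11 SE and 1.11 ± 0.10 SE. Means at E11.5 were 8.73 for Eya1, 7.40 for Six4, 6.56 for Mef2c and 4.31 for Myod1, and which cells made them was not tested. Among the 8 not called late were Myf5 (0.11, adjusted p = 0.54) and Myf6 (-0.15, adjusted p = 0.39).

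Other sarcomere genes had 16 of 39 higher and 6 lower late (median 0.17). The Z-disc protein Synpo2l rose by 3.53 ± 0.10 SE, the chaperone Cryab by 2.33 ± 0.17 SE and the M-band protein Myom2 by 1.90 ± 0.13 SE, whereas the kinase Mylk2 fell by 1.34 ± 0.15 SE and Trim54 by 0.56 ± 0.11 SE. Of 28 genes of excitation-contraction coupling and membrane, 14 rose and 3 fell (median 0.24). Among them the calcium pump Atp2a1 rose by 1.46 ± 0.13 SE and its regulator sarcolipin, Sln, by 2.72 ± 0.10 SE, and Jsrp1 and Itga7 fell by 0.83 ± 0.15 SE and 0.56 ± 0.13 SE. Of 13 other synapse genes, 5 rose and 2 fell (median 0.16). Lamb2, Erbb3 and agrin, Agrn, rose by 1.14 ± 0.18 SE, 1.06 ± 0.12 SE and 0.87 ± 0.08 SE, and Nes and Utrn fell by 0.79 ± 0.08 SE and 0.30 ± 0.08 SE. These 5 genes are also made by neural or other cells. Of 15 genes of muscle energy, 4 rose and 1 fell (median 0.12), a share of rises near the 27.9% of all genes. The fatty acid carrier Fabp3 rose by 2.11 ± 0.11 SE and the phosphorylase kinase subunit Phka1 by 0.54 ± 0.12 SE, and the glucose transporter Slc2a4 fell by 1.41 ± 0.10 SE.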

How the data were processed

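The authors deposited linear intensity values, 1 for each probe set, as whole numbers. They come from RMA, per the submitters' processing notes, of which no version or setting was given in the sources used. Array medians were 31 or 32, so values show changes relative to other transcripts, and rounding makes coarse steps at the dim end. Arrays have no read depth, and their number sets the precision. Analyses used log2 of the deposited values. Of 45101 probe sets, 64 were controls, 34945 named 1 gene in the platform annotation, 932 several (not used) and 9160 none in the table used here. Each of the 18193 genes was read from the probe set with the highest mean.

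All 16 arrays were fitted in 1 model with limma (version 3.58.1, under R 4.3.3), through lmFit, contrasts.fit and eBayes. The script was tested on simulated data. The p-values measure the spread between the arrays of a stage, and the main model treats these arrays as independent. Arrays sharing a title prefix had a consensus correlation of 0.601, so p-values of comparisons with E13.5 may be too small. With the prefix as a random block, 31 muscle genes rose from E11.5 to E13.5, where 33 did in the main model. The E13.5 prefixes were compared by counts, with no test. Alternatives were quantile normalization, median centring, another summary of a gene (the mean of its probe sets, or its second-brightest), no dimmest 25% of genes, only the stages compared, trended and robust variance, array weights, a random block for the title prefix, and leaving out each array or E9.5 samples 13 and 15 together.

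The 39 genes, the other lists and the tests were chosen with earlier results of these data known. Full values were given, per role, for the genes with the largest called late difference (3 in roles of 5 or more genes, otherwise 1), every gene called lower or with a late difference below 0, the 4 largest early rises and falls, and genes not called late. Of each other list up to 3 called genes with the largest change and 2 against the median were taken, and the text names a part of them. Promoters printed were picked after seeing the matches.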

Additional observations from a re-analysis of the deposited data

Results flagged for a closer look

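Single arrays stood apart from the others of their stage in 9 of the 117 gene and stage groups, by the gap to the nearest array over the whole range (Dixon's test), which chance passes in about 1 of 20 groups. At E9.5 sample 15 was low for Tnnt2 (3.00, others 3.32 to 3.46), Tnni1 (3.58, others 4.17 to 4.46) and Myh8 (2.32, others 3.00 to 3.32), and sample 22 was low for Myh3 (3.17, others 3.46 to 3.58). At E11.5 sample 36 was high for Tnnt2 (3.00, others all 2.81), sample 51 for Ldb3 (4.17, others all 3.81) and sample 33 for Ckm (5.29, others 4.75 to 4.81). At E13.5 B63E5K was low for Tnnt1 (8.97, others 9.38 to 9.60) and B63E7K for Tcap (4.86, others 5.13 to 5.29). Values near 3 are intensities under 12, where 1 whole-number step is wide on the log2 scale.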

How the results depend on the processing

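The counts of rises from E11.5 to E13.5 stayed within 1.5 times under each alternative run, and without each array in turn they were 31 to 33, with 2 falls each time and a median of 1.60 to 1.69. Under median centring the early rises numbered 5 in place of 9, the genes lower at E13.5 than at E9.5 numbered 2 in place of 1 (also 2 with the second-brightest probe set), and the median from E9.5 to E13.5 was 1.36 in place of 1.51. With the mean of all probe sets 1 gene in place of 2 fell late and 1 in place of 3 had a smaller late step, which was 5 without E9.5 samples 13 and 15. Without the dimmest 25% of genes (13645 genes and 30 of the 39 left) 1 gene fell late, and the medians were 2.11 from E11.5 to E13.5 and 1.85 from E9.5 to E13.5. Leaving out arrays in turn gave 6 to 10 early rises, 9 to 13 early falls, an early median of -0.084 to 0.011 (above 0 without E11.5 sample 52), 32 to 35 genes higher and 1 lower at E13.5 than at E9.5, a median there of 1.38 to 1.56, and 29 to 32 larger and 3 to 4 smaller late steps. The cause was not tested.

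Signs of called genes turned only with other probe sets. Early, Tpm2 gave -0.27 (mean of all) and -0.45 (second-brightest), and the second-brightest gave 0.056 for Ldb3, 0.39 for Des and -0.29 for Ryr1. Late, Tpm2 gave 1.19 and 1.43, Mybpc1 0.52 and 1.5, and the second-brightest gave -1.18 for Myl4 and -0.32 for Des. From E9.5 to E13.5 the second-brightest gave -0.23 for Chrng. No paired analysis was possible because the stages share no sample numbers. Where a gene was called in neither fit, its sign turned in 25 early fits that left out 1 array and 15 other early fits, in 0 and 1 late ones, and in 1 and 4 from E9.5 to E13.5.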
